A study of Mus musculus with 27 samples.

Results

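The Cyp2c genes code for liver cytochrome P450 enzymes, and 10 of them were followed here across 9 inbred mouse strains. The members were Cyp2c29, Cyp2c37, Cyp2c38, Cyp2c39, Cyp2c40, Cyp2c50, Cyp2c54, Cyp2c67, Cyp2c68 and Cyp2c70, taken as the rows of the count table whose Ensembl identifier carries that symbol in GENCODE M21. They were 10 of 43346 genes in the table, and all 10 passed the filter on low counts that left 14482 genes for testing. RNA was sequenced from hepatocytes of the livers of female mice aged 12 weeks, with 3 libraries per strain and 27 in all. The classical laboratory strains were C57BL/6J, A/J, NZO/HlLtJ, 129S1/SvImJ, NOD/ShiLtJ and DBA/2J, and the strains derived from wild mice were PWK/PhJ, WSB/EiJ and CAST/EiJ. No treatment or engineered allele is named for any of them. The series was designed to relate strain differences in chromatin marks to strain differences in expression, and only expression was analysed here. The labels call the libraries of a strain biological replicates without naming the mice, so p-values measure the spread between these libraries.

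Cytochrome P450 enzymes of the CYP2C group sit in the membrane of the endoplasmic reticulum and use heme, oxygen and electrons from P450 reductase to oxidise lipids and drugs. In liver they turn arachidonic acid into epoxides and hydroxylated acids, clear drugs and steroids, and, in the mouse, shape the bile acid pool. Their genes lie side by side as the products of repeated duplication, and their transcription is known to depend on hepatocyte factors such as HNF4A, on the xenobiotic receptors CAR and PXR, and for some on the sex-dependent pattern of growth hormone.

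Library totals ran from 17015932 to 35078483 estimated counts, so that 1 count corresponded to 0.0253 to 0.0516 CPM (the usual scaling of counts to a fixed library size, here after adjustment by TMM). The hepatocyte label was checked against 10 hepatocyte genes, whose summed level ran between 139035 (CAST/EiJ) and 341066 CPM (A/J) as strain means. Markers of other liver cells were low but present: the summed level of 10 Kupffer cell genes ran between 60.5 (129S1/SvImJ) and 250.1 CPM (C57BL/6J), that of 10 endothelial genes between 85 (NZO/HlLtJ) and 455 CPM (PWK/PhJ), and that of 10 stellate cell genes from 30.1 to 87.5 CPM. The summed level of 10 lymphocyte genes stayed between 1.3 and 7.09 CPM, that of 8 cholangiocyte genes between 9.46 and 16.6 CPM, and that of 6 erythroid genes between 4.33 and 24.1 CPM. All 10 Kupffer cell and all 10 endothelial genes differed among strains, against 74.2% of all genes tested. Of the Kupffer cell genes, 10 were lower than in C57BL/6J in 129S1/SvImJ and CAST/EiJ, 9 in NZO/HlLtJ, 8 in NOD/ShiLtJ, 6 in WSB/EiJ, 1 in DBA/2J and PWK/PhJ and 0 in A/J, and none was higher. Of the endothelial genes, 8 were lower in NZO/HlLtJ, 2 in 129S1/SvImJ, 1 in WSB/EiJ and CAST/EiJ and 0 in the others, and 1 was higher in PWK/PhJ. Of all genes tested, 5.7% (A/J) to 17.8% (CAST/EiJ) were lower than in C57BL/6J and 5.39% to 16.6% higher. Outside NZO/HlLtJ, the endothelial counts were near these shares. Kupffer cell genes thus moved with the comparisons in 129S1/SvImJ, CAST/EiJ, NZO/HlLtJ, NOD/ShiLtJ and WSB/EiJ, and endothelial genes in NZO/HlLtJ. Their part in the results was not tested. The PWK/PhJ means rested on replicate 1, at 826 CPM for the endothelial and 442 CPM for the Kupffer cell genes, against 250.4 and 289.6 CPM and 150.4 and 151 CPM in the other libraries. Without that library, none of the 5 calls of members in PWK/PhJ against C57BL/6J was lost. In bulk RNA, fewer cells of a type and less RNA per cell cannot be told apart.

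The members formed a single cluster on chromosome 19 (GRCm38), from 39269405 to 40187333, a span of 917.9 kb. The GENCODE M21 annotation places 13 genes there, 11 of them protein coding. The coding gene in the cluster that was not a member is Cyp2c69, between Cyp2c40 and Cyp2c37. In chromosomal order, Cyp2c29 (39269405 to 39330713, plus strand), Cyp2c38 (39389556 to 39463075, minus) and Cyp2c39 (39510862 to 39568529, plus) came first. Cyp2c67 (39608842 to 39649051), Cyp2c68 (39688834 to 39741054) and Cyp2c40 (39767071 to 39812814) followed, all on the minus strand. Cyp2c37 (39992424 to 40012243, plus), Cyp2c54 (40037940 to 40073827, minus), Cyp2c50 (40089688 to 40113950, plus) and Cyp2c70 (40153353 to 40187333, minus) closed the cluster. The Cyp2c29 gene model overlaps the pseudogene Cyp2c53-ps on the same strand, so reads in the shared part could belong to either.

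Members close together in the cluster were often close in sequence. The coding sequences of Cyp2c67 and Cyp2c68 were 97.1% identical, those of Cyp2c37 and Cyp2c50 96.1%, those of Cyp2c50 and Cyp2c54 95.2%, and those of Cyp2c38 and Cyp2c39 94.2%. Cyp2c29 was 89.5% identical to Cyp2c39 and 89.1% to Cyp2c38, and Cyp2c67 was 97.7% identical to Cyp2c69. Cyp2c70 stood apart, with 69.5% identity to its closest relative, Cyp2c55. A read can be placed on a single member only where it covers a difference between them. Of all windows of 50 bases in the transcript, 72.1% of those of Cyp2c40, 52.8% of those of Cyp2c67 and 43.3% of those of Cyp2c68 occurred in another Cyp2c transcript. The shares were 30.1% for Cyp2c37, 30.7% for Cyp2c50, 25.7% for Cyp2c54, 11.4% for Cyp2c39, 7.4% for Cyp2c38, 0.5% for Cyp2c29 and 0.0% for Cyp2c70. Cyp2c70 had whole deposited counts in all 27 libraries. Cyp2c37, Cyp2c40, Cyp2c50, Cyp2c54, Cyp2c67 and Cyp2c68 had fractional counts in all 27, Cyp2c39 in 26, Cyp2c38 in 24 and Cyp2c29 in 22, as arise when a read is divided among copies. Which copy the values of the 6 genes with fractional counts throughout belong to is therefore uncertain.

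**Figure D1:**
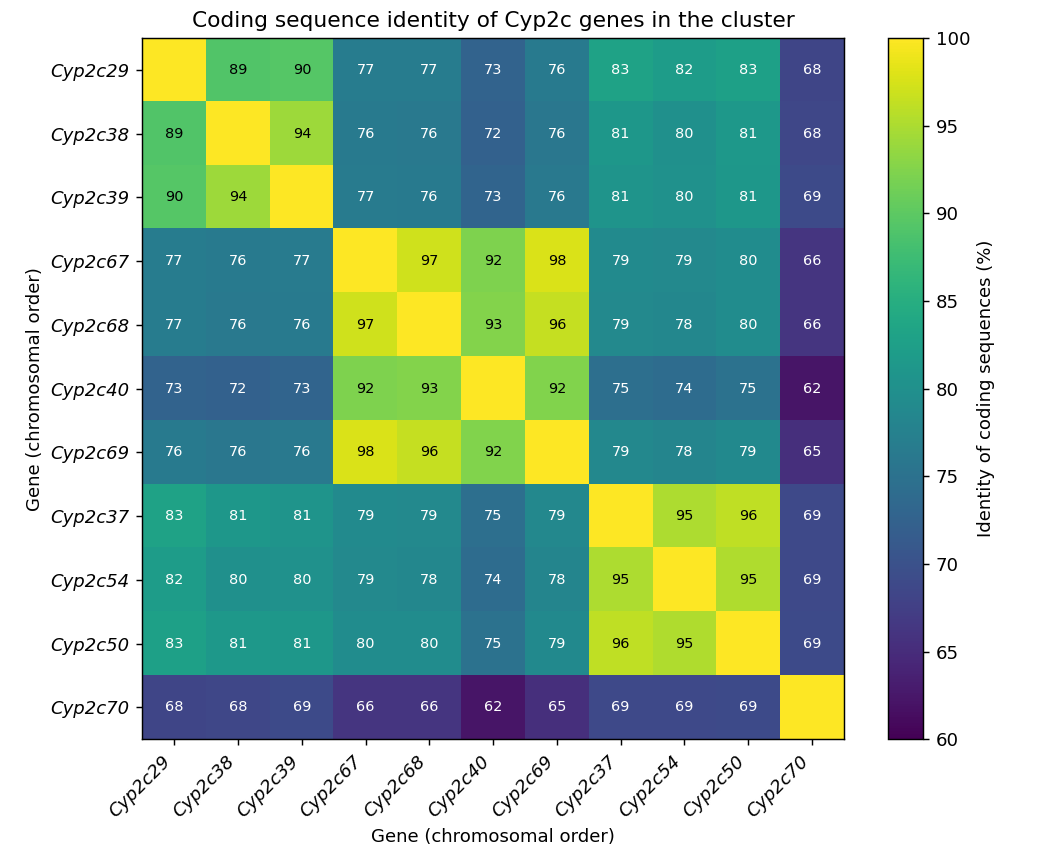
Identity of the coding sequences (%, colour and number) for the 10 members and Cyp2c69, which lies in the cluster but is not a member, with genes in chromosomal order on both axes. Blocks of high identity join Cyp2c29, Cyp2c38 and Cyp2c39, then Cyp2c67, Cyp2c68, Cyp2c40 and Cyp2c69, then Cyp2c37, Cyp2c54 and Cyp2c50, while Cyp2c70 is distant from all.

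Which genome the reads of each strain were aligned to, that of C57BL/6J or the strain's own, is not given in the sources used here. A difference in sequence or gene copy between a strain and the reference and a difference in RNA level cannot be told apart from these counts, which bears most on CAST/EiJ and PWK/PhJ and on the members with near-identical copies.

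The stretch of 250 bases before the transcription start is shown for 5 members whose levels among strains are described next, from the RefSeq promoter table (GRCm38.p6, the C57BL/6J sequence, printed 5′ to 3′ along the gene). Capitals mark CAAAGT, the core of the element that HNF4A binds. Cyp2c38 (chr19:39463076-39463325, minus strand), Cyp2c39 (chr19:39510572-39510821, plus) and Cyp2c29 (chr19:39286835-39287084, plus) belong to the first block of the cluster (the RefSeq start of Cyp2c29 lies inside the longer GENCODE gene), and Cyp2c37 (chr19:39992174-39992423, plus) and Cyp2c50 (chr19:40089429-40089678, plus) to the last.
Cyp2c38: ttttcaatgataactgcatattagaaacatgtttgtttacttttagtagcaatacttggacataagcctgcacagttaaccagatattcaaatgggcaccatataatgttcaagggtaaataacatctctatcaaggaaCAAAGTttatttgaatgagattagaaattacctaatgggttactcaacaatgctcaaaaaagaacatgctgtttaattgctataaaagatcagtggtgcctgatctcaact
Cyp2c39: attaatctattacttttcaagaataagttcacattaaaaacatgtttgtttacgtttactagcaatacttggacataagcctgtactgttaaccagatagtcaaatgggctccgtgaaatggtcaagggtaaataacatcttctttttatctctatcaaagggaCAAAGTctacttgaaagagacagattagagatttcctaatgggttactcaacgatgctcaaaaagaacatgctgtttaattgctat
Cyp2c29: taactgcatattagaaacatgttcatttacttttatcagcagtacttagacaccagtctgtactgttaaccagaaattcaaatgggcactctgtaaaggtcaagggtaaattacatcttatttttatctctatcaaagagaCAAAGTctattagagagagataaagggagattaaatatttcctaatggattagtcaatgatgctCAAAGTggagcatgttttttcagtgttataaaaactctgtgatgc
Cyp2c37: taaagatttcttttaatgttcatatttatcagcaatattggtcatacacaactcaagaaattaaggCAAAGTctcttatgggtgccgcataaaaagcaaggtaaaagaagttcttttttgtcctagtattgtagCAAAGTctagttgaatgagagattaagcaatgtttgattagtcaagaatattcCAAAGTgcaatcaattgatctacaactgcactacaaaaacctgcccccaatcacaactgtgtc
Cyp2c50: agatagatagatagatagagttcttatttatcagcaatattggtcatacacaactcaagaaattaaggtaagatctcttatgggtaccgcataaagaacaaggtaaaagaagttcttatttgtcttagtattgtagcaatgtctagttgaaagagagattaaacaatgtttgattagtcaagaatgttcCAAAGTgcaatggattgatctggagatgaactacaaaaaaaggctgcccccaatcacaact

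A promoter window of 300 bases (250 before the start and 50 after) was matched for 9 of the 10 members by symbol, and none was matched for Cyp2c54. Both strands were searched for each motif. CAAAGT occurred in 9 of the 9 member windows and in 14.4% of 32851 promoter windows of the same length. TGTTTAC, the core bound by forkhead factors such as FOXA, occurred in 2 of the 9, Cyp2c38 and Cyp2c39, and in 3.65% of all windows. TATAAA, the letters of the TATA box, occurred in 6 of the 9 and in 13.6% of all windows. The match of Cyp2c40 lay after the start, that of Cyp2c39 across it and that of Cyp2c70 on the opposite strand. TTCNNNGAA, the STAT element, occurred in 0 of the 9 and in 8.3% of all windows. The window of Cyp2c38 was 83.0% identical to that of Cyp2c39, and that of Cyp2c37 88.3% identical to that of Cyp2c50. The windows of Cyp2c40 and Cyp2c68 were 93.3% identical. These matches describe the C57BL/6J letters only.

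All 10 members differed among the 9 strains (edgeR quasi-likelihood F test, Benjamini-Hochberg adjusted p under 0.05 over all genes tested), against 74.2% of all genes tested, so being called is common in these data. The members differed more in size than in being called. The range of the strain means had a median of 2.60 log2 units over the members and 1.16 over all genes tested, while the spread within strains was alike (median SD 0.32 and 0.28 log2 units). Of 360 tests of a member in a pair of strains, 165 were called, against 23.4% of all gene and pair tests. A member was called in a median of 16.5 of 36 pairs and a gene of all those tested in a median of 8. Cyp2c38 (30 pairs), Cyp2c39 (28 pairs) and Cyp2c68 (22 pairs) separated the most pairs, and Cyp2c54 (4 pairs) and Cyp2c40 (7 pairs) the fewest. The members cover a wide range of sizes and do not share a single pattern over the strains.

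**Figure D2:**
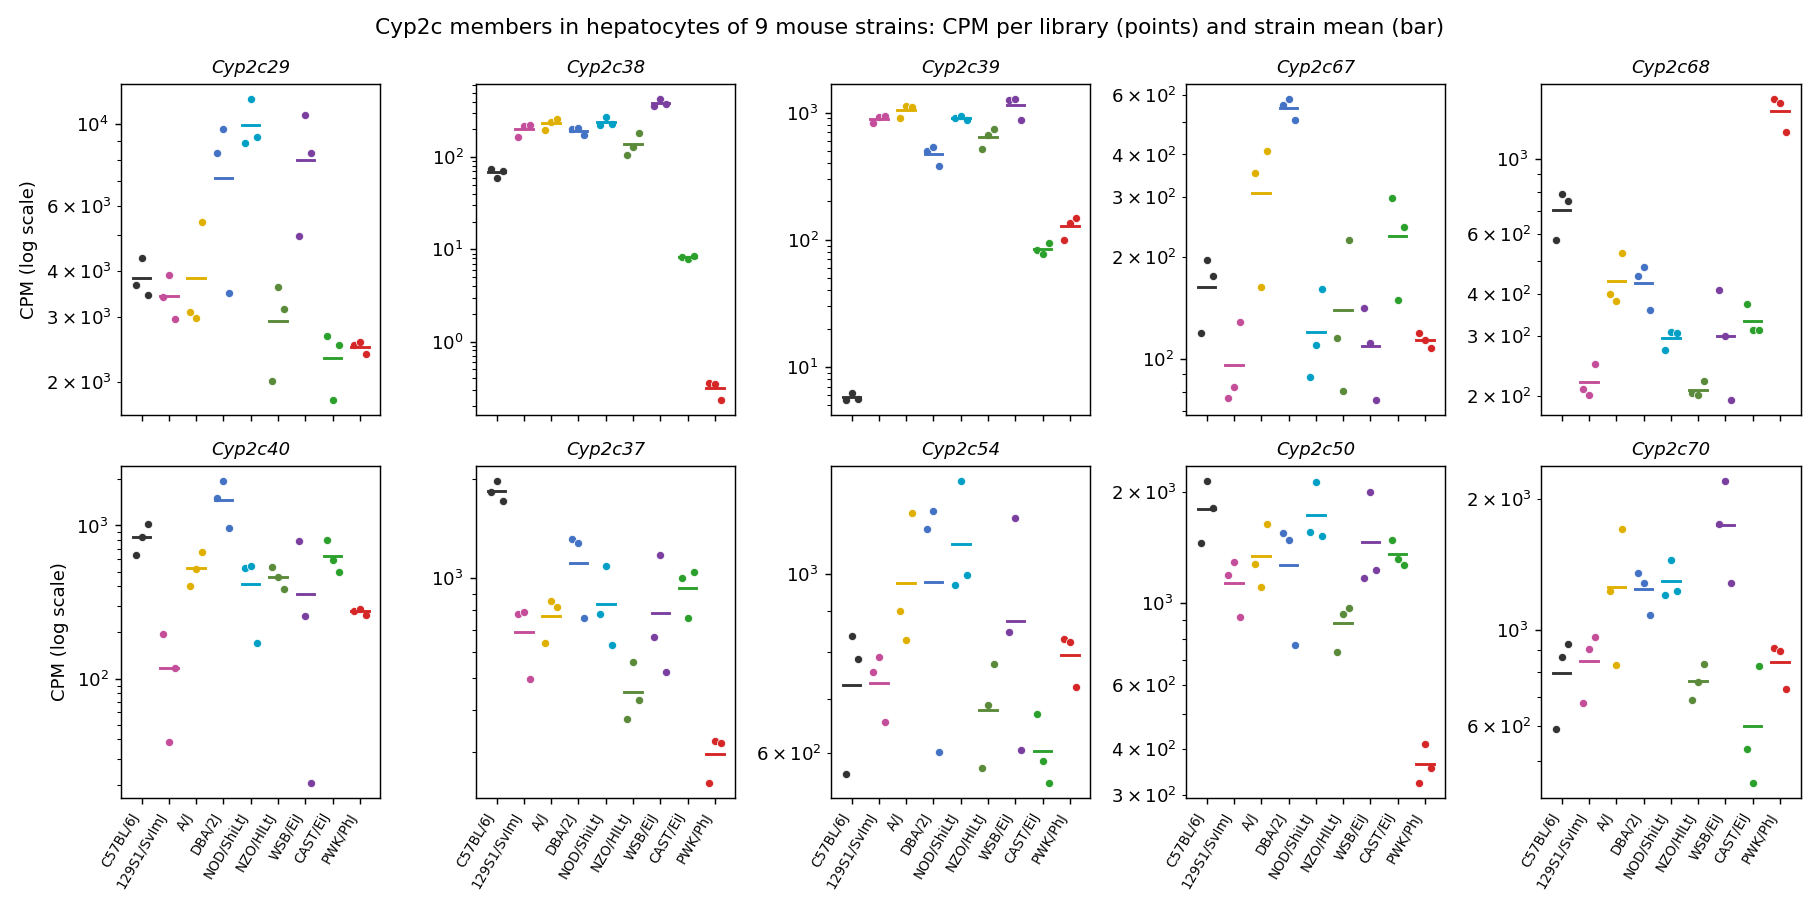
Level of each member in CPM (vertical axis, log scale, a separate scale per panel) in the 27 libraries (points) of the 9 strains (horizontal axis), with the strain mean as a bar. Cyp2c39 is lowest in C57BL/6J (5.79 CPM) and Cyp2c38 in PWK/PhJ (0.312 CPM), whereas Cyp2c54 lies between 551 and 1304 CPM in every library.

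Per kilobase of the longest annotated transcript, Cyp2c29 had the highest mean level over the 27 libraries, at 1729 CPM per kb. The longest Cyp2c29 transcript is not coding, and with the longest coding transcript the level was 2737 CPM per kb. Cyp2c50 followed at 691 CPM per kb, Cyp2c70 at 606, Cyp2c37 at 470.3, Cyp2c54 at 464, Cyp2c39 at 325, Cyp2c40 at 314, Cyp2c68 at 278, Cyp2c67 at 117 and Cyp2c38 at 56.9 CPM per kb. This order is of means over all libraries and changed by strain. By strain means, Cyp2c29 was first in all 9, but Cyp2c37 was second in C57BL/6J, Cyp2c68 in PWK/PhJ, Cyp2c40 in DBA/2J and Cyp2c70 in WSB/EiJ. In C57BL/6J, however, Cyp2c50 was above Cyp2c37 in replicates 2 (1175 against 1077 CPM per kb) and 4 (997 against 941). In DBA/2J, Cyp2c50 was above Cyp2c40 in replicate 2 (851 against 843), and Cyp2c70 was above it in replicate 4 (630.1 against 531). With the total exon length in place of the longest transcript, Cyp2c50 was at 432 CPM per kb, below Cyp2c37 and Cyp2c54.

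Cyp2c39 was nearly silent in C57BL/6J and abundant in most other strains. The enzyme forms epoxides of arachidonic acid and is also known to hydroxylate retinoic acid. The C57BL/6J libraries held 5.5, 6.24 and 5.64 CPM (134 to 161 counts), and the WSB/EiJ libraries, the highest, held 1243, 1284 and 881 CPM. No library of another strain came near the C57BL/6J level, since the lowest of them, in CAST/EiJ, held 77.8 CPM. Strain means fell in 3 tiers. WSB/EiJ (1136 ± 222 CPM, SD, n = 3), A/J (1049.6 ± 124), NOD/ShiLtJ (906 ± 28.3), 129S1/SvImJ (893 ± 57.5), NZO/HlLtJ (642 ± 112) and DBA/2J (474 ± 80.7) were high, PWK/PhJ (128 ± 25) and CAST/EiJ (84.9 ± 8.31) were intermediate, and C57BL/6J (5.79 ± 0.394) was low. No neighbours among the 6 high strains differed in the test, with adjusted p from 0.0522 to 0.954 (edgeR). Strains farther apart within this tier did differ: DBA/2J from 129S1/SvImJ, NOD/ShiLtJ, A/J and WSB/EiJ, and NZO/HlLtJ from NOD/ShiLtJ, A/J and WSB/EiJ (adjusted p from 9.97e-06 to 0.0425, edgeR). DBA/2J also differed from PWK/PhJ (adjusted p = 2.52e-08, edgeR), PWK/PhJ from CAST/EiJ (0.0173) and CAST/EiJ from C57BL/6J (3.57e-13). Against C57BL/6J, Cyp2c39 was higher in 8 of 8 strains, from a log2 fold change of 3.87 ± 0.20 (SE) in CAST/EiJ, or 14.6-fold, to 7.61 ± 0.24 in WSB/EiJ, or 196-fold (adjusted p = 5.61e-17, edgeR).

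Cyp2c38, its neighbour and closest relative, was like Cyp2c39 higher in the same 6 strains than in the 3 others. The order of the strains within each set was not the same for both genes. The Cyp2c38 enzyme is also an arachidonic acid epoxygenase. For Cyp2c38, the PWK/PhJ libraries held 0.359, 0.344 and 0.232 CPM, which rest on 9, 10 and 7 counts, and the CAST/EiJ libraries held 8.28, 7.79 and 8.4 CPM. The C57BL/6J libraries held 74.7, 60 and 69.8 CPM, and the WSB/EiJ libraries 355, 429 and 373 CPM. The libraries of these 4 strains did not overlap. In order, the strain means were 386 CPM in WSB/EiJ, 241 in NOD/ShiLtJ, 232 in A/J, 202 in 129S1/SvImJ, 193 in DBA/2J, 139 in NZO/HlLtJ, 68.2 in C57BL/6J, 8.16 in CAST/EiJ and 0.312 in PWK/PhJ. NOD/ShiLtJ, A/J, 129S1/SvImJ and DBA/2J did not differ from their neighbours among themselves (adjusted p from 0.44 to 0.867, edgeR). The other neighbours differed, the closest being DBA/2J and NZO/HlLtJ (adjusted p = 0.0459, edgeR), whose libraries overlapped. Against C57BL/6J, Cyp2c38 was higher in 6 strains, at most by 2.50 ± 0.18 log2 units in WSB/EiJ (adjusted p = 1.39e-10, edgeR), and lower in 2. It was lower by 8.36-fold in CAST/EiJ (log2 fold change -3.06 ± 0.19, adjusted p = 7.33e-12, edgeR) and by 217-fold in PWK/PhJ (-7.76 ± 0.26, adjusted p = 1.42e-16).

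The ratio of Cyp2c39 to Cyp2c38 also differed among strains. It lay between 2.44 in DBA/2J and 4.71 in NZO/HlLtJ in the 6 high strains (strain means). It was 0.0862 in C57BL/6J, with libraries from 0.0737 to 0.104. It was 10.4 in CAST/EiJ and 437 in PWK/PhJ, where the few Cyp2c38 counts spread it from 278 to 639. The sum of both, which does not depend on how reads were divided between them, was 73.9 ± 7.09 CPM in C57BL/6J, 93 ± 8.59 CPM in CAST/EiJ and 128 ± 24.9 CPM in PWK/PhJ, against 667 to 1522 CPM in the others.

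Cyp2c29, an epoxygenase that is also induced by phenobarbital through CAR, was the most abundant member. The NOD/ShiLtJ libraries were highest, at 8865, 11724 and 9249 CPM, and the CAST/EiJ libraries lowest, at 2667, 1788 and 2528 CPM. The means of NOD/ShiLtJ (9946 ± 1552 CPM), WSB/EiJ (7973 ± 2833 CPM) and DBA/2J (7169 ± 3255 CPM) stood above those of A/J (3832), C57BL/6J (3824), 129S1/SvImJ (3424), NZO/HlLtJ (2935), PWK/PhJ (2492) and CAST/EiJ (2328 CPM). Among neighbours in this order only DBA/2J and A/J differed (adjusted p = 0.0408, edgeR), and every pair of neighbours overlapped. Cyp2c29 was higher than in C57BL/6J in NOD/ShiLtJ by a log2 fold change of 1.38 ± 0.32 (adjusted p = 0.00263, edgeR), in WSB/EiJ by 1.06 ± 0.32 (0.0172) and in DBA/2J by 0.91 ± 0.32 (0.0402), and lower in none. The DBA/2J libraries were unequal, at 8336, 9679 and 3492 CPM. Without DBA/2J replicate 3 its log2 fold change was 0.63 (adjusted p = 0.194, edgeR), without replicate 4 it was 1.24 (0.0031), and the call was also lost without DBA/2J replicate 2 or any C57BL/6J library. The WSB/EiJ difference was 0.81 (adjusted p = 0.0942, edgeR) without WSB/EiJ replicate 3 and 0.99 (0.0583) without C57BL/6J replicate 4.

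DBA/2J replicate 4 was the lowest library of its strain for all 10 members, among them Cyp2c37 (759 CPM), Cyp2c50 (767 CPM), Cyp2c54 (601 CPM), Cyp2c40 (958 CPM), Cyp2c70 (1082 CPM) and Cyp2c38 (175 CPM). Its summed Kupffer cell level was 35 CPM, against 131 and 195 CPM in the other DBA/2J libraries. Its summed hepatocyte level was also lowest, at 161091 CPM against 193065 and 263215 CPM. The endothelial, stellate and lymphocyte sums were lowest there as well, while the cholangiocyte and erythroid sums were highest. The part of these differences in the result was not tested.

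Cyp2c68 was the member in which PWK/PhJ stood highest. Its libraries there held 1503, 1456 and 1198 CPM, and those of NZO/HlLtJ, the lowest, 203, 201 and 221 CPM. PWK/PhJ did not overlap any other strain, and C57BL/6J, at 577, 787 and 751 CPM, overlapped none of the rest. The strain means were 1386 CPM in PWK/PhJ, 705 in C57BL/6J, 436 in A/J, 429 in DBA/2J, 333 in CAST/EiJ, 301 in WSB/EiJ, 295 in NOD/ShiLtJ, 219 in 129S1/SvImJ and 208 in NZO/HlLtJ. Of neighbours, PWK/PhJ and C57BL/6J (adjusted p = 9.66e-04, edgeR) and C57BL/6J and A/J (0.0146) differed, and no others did. Against C57BL/6J, Cyp2c68 was higher in PWK/PhJ (log2 fold change 0.98 ± 0.20) and lower in the 7 other strains, at most in NZO/HlLtJ (-1.76 ± 0.21, adjusted p = 6.68e-07, edgeR). The differences in A/J (-0.69) and DBA/2J (-0.72) did not pass in a fit on the 6 libraries of the 2 strains (adjusted p = 0.13 and 0.107, edgeR). The A/J call was also lost without C57BL/6J replicate 2 (0.0566) or A/J replicate 1 (0.05) or 2 (0.0625), and the DBA/2J call without DBA/2J replicate 4 (0.0531). The sum of Cyp2c40, Cyp2c67, Cyp2c68 and Cyp2c69 does not depend on how reads were divided among them. It was 1984 ± 171 CPM in PWK/PhJ and 3048 ± 533 CPM in C57BL/6J. Without Cyp2c69 the sum was 1775 ± 180.0 CPM in PWK/PhJ and 1704 ± 320.1 CPM in C57BL/6J. Neither sum showed the PWK/PhJ rise of Cyp2c68.

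Cyp2c67, the closest member to Cyp2c68 in sequence, was highest in DBA/2J, whose libraries held 558, 584 and 505 CPM. The lowest strain was 129S1/SvImJ, at 76.9, 82.6 and 128 CPM. The DBA/2J libraries overlapped no other strain. The order of strain means was DBA/2J (549 CPM), A/J (308), CAST/EiJ (230.2), C57BL/6J (163), NZO/HlLtJ (139.8), NOD/ShiLtJ (119.7), PWK/PhJ (114), WSB/EiJ (109) and 129S1/SvImJ (95.8 CPM), and no neighbours differed in the test (adjusted p from 0.0866 to 0.929, edgeR). Against C57BL/6J it was higher in DBA/2J alone among the 8 strains tested, by a log2 fold change of 1.75 ± 0.36 (adjusted p = 7.64e-04, edgeR). The ratio of Cyp2c68 to Cyp2c67 was 12.1 in PWK/PhJ, 4.38 in C57BL/6J and 0.778 in DBA/2J. The sum of Cyp2c40, Cyp2c67, Cyp2c68 and Cyp2c69 was 3000.4 ± 794 CPM in DBA/2J and 3048 ± 533 CPM in C57BL/6J, so it showed no rise. Without Cyp2c69, the closest gene to Cyp2c67, the sum was 2453 ± 599 CPM in DBA/2J and 1704 ± 320.1 CPM in C57BL/6J.

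Cyp2c40, which hydroxylates arachidonic acid and is known as more abundant in female than in male liver, varied more between libraries of a strain than any other member. Its within-strain SD was 1.07 log2 units, at percentile 97.9 of all genes tested. The WSB/EiJ libraries held 787, 255 and 20.9 CPM (replicates 2, 3 and 4), a ratio of 37.7 between the highest and the lowest. The DBA/2J libraries were highest, at 1520.1, 1948 and 958 CPM, and those of 129S1/SvImJ lowest on average, at 195, 38.4 and 117 CPM. These 2 strains did not overlap, while WSB/EiJ spanned most of the range of the other strains. Strain means ran from DBA/2J (1475 ± 496 CPM) through C57BL/6J (836), CAST/EiJ (632), A/J (531), NZO/HlLtJ (459), NOD/ShiLtJ (415), WSB/EiJ (354 ± 393) and PWK/PhJ (275 ± 12) to 129S1/SvImJ (117 ± 78.4). No neighbours differed (adjusted p from 0.195 to 0.908, edgeR). Cyp2c40 was lower than in C57BL/6J in 129S1/SvImJ (log2 fold change -2.84 ± 0.71, adjusted p = 0.0046, edgeR) and in no other strain by the test. It was called in 7 of 36 pairs, in 14 without WSB/EiJ replicate 2 and in 13 without WSB/EiJ replicate 4.

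Cyp2c69, the adjacent gene that is not a member and is known as female-specific in mouse liver, spread over the same WSB/EiJ libraries, at 612, 115 and 2.03 CPM. The 3 libraries thus ranked alike for both genes, and 54.8% of the Cyp2c69 windows of 50 bases occurred in another Cyp2c transcript. Cux2, a transcription factor known for its high level in female liver, held 26, 7.34 and 5.52 CPM in those libraries. The library ranks of Cyp2c40 and Cux2 ran together only in WSB/EiJ and NOD/ShiLtJ and differed in every other strain. In PWK/PhJ, where Cyp2c40 held 277, 286 and 262 CPM, Cux2 held 3.99, 25.3 and 19.1 CPM. In C57BL/6J, where Cyp2c40 held 645, 846 and 1017 CPM, Cux2 held 27.8, 9.65 and 13.6 CPM. These genes were set side by side after their values were seen, and the part of Cux2 in the spread of Cyp2c40 was not tested.

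**Figure D3:**
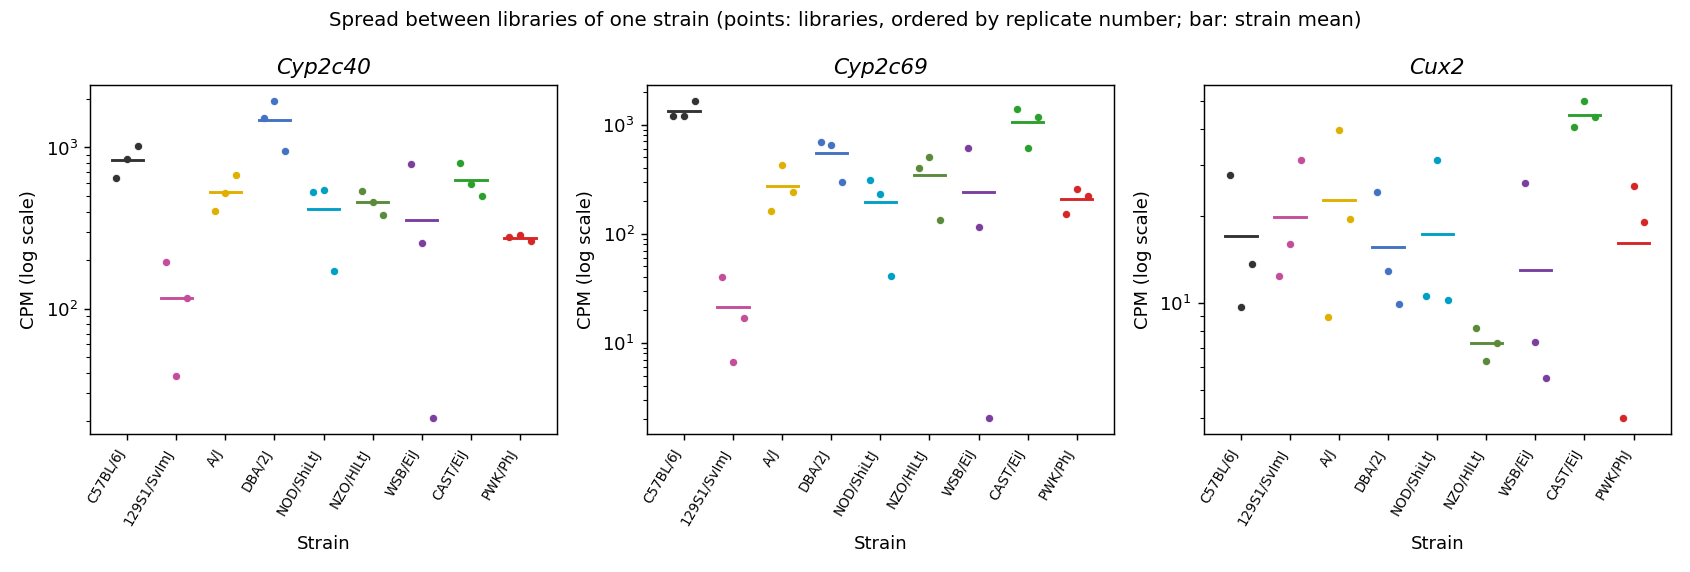
Level in CPM (vertical axis, log scale) of the member Cyp2c40, its neighbour Cyp2c69 and the transcription factor Cux2 in each library (points, in order of replicate number) of the 9 strains, with the strain mean as a bar. The WSB/EiJ libraries fall from 787 to 20.9 CPM for Cyp2c40 and from 612 to 2.03 CPM for Cyp2c69, and in PWK/PhJ Cyp2c40 lies between 262 and 286 CPM.

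Cyp2c37, which makes a hydroxylated product of arachidonic acid, was highest in C57BL/6J. Its libraries there held 1826, 1965 and 1716 CPM, and the PWK/PhJ libraries, the lowest, held 242, 324 and 319.6 CPM. Neither strain overlapped any other. The means were 1836 CPM in C57BL/6J, 1116 in DBA/2J, 935 in CAST/EiJ, 834 in NOD/ShiLtJ, 787 in WSB/EiJ, 773 in A/J, 689.6 in 129S1/SvImJ, 454 in NZO/HlLtJ and 295 in PWK/PhJ. No neighbours differed in the test (adjusted p from 0.0589 to 0.965, edgeR). Against C57BL/6J, Cyp2c37 was lower in 7 of 8 strains, at most in PWK/PhJ by 6.22-fold (log2 fold change -2.64 ± 0.29, adjusted p = 2.03e-07, edgeR). In DBA/2J the log2 fold change was -0.72 ± 0.27 (adjusted p = 0.0589, edgeR), which did not pass. The CAST/EiJ difference of -0.97 was -0.84 (adjusted p = 0.0572, edgeR) without CAST/EiJ replicate 4.

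Cyp2c50, an arachidonic acid epoxygenase, was lowest in PWK/PhJ. The C57BL/6J libraries, the highest on average, held 1453, 2144 and 1818 CPM, and the PWK/PhJ libraries 325, 414 and 356 CPM. PWK/PhJ overlapped no other strain, whereas the 8 others each overlapped their neighbours. The means were 1805 CPM in C57BL/6J, 1737 in NOD/ShiLtJ, 1469 in WSB/EiJ, 1355 in CAST/EiJ, 1339 in A/J, 1266 in DBA/2J, 1134 in 129S1/SvImJ, 879.8 in NZO/HlLtJ and 365 in PWK/PhJ. The only neighbours that differed were NZO/HlLtJ and PWK/PhJ (adjusted p = 5.73e-04, edgeR). Against C57BL/6J, Cyp2c50 was lower in PWK/PhJ (log2 fold change -2.31 ± 0.26, adjusted p = 3.17e-07, edgeR) and NZO/HlLtJ (-1.04 ± 0.25, 0.00357).

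Cyp2c54, whose enzyme also acts on arachidonic acid, was the flattest member. Its highest strain was NOD/ShiLtJ, at 969.5, 1304 and 997 CPM, and its lowest CAST/EiJ, at 671, 586 and 551 CPM. These 2 strains did not overlap, but the range over all 9 strain means was 1.81-fold. The order was NOD/ShiLtJ (1090.3 CPM), DBA/2J (978), A/J (973), WSB/EiJ (875), PWK/PhJ (792), 129S1/SvImJ (733), C57BL/6J (729), NZO/HlLtJ (678) and CAST/EiJ (603 CPM), and no neighbours differed (adjusted p from 0.661 to 0.994, edgeR). It was called in no comparison with C57BL/6J. Its call among the 9 strains was narrow (adjusted p = 0.0367, edgeR), and leaving out a library took it to as much as 0.0886 (without NOD/ShiLtJ replicate 2). Its range of strain means, 0.85 log2 units, was at percentile 33.2 of all genes tested. The ratio of Cyp2c50 to Cyp2c54 was 0.462 in PWK/PhJ (libraries from 0.391 to 0.503) and between 1.29 and 2.48 in the other strains. The sum of Cyp2c37, Cyp2c50 and Cyp2c54 was 1453 ± 94 CPM in PWK/PhJ and 4370.1 ± 552 CPM in C57BL/6J. This sum does not depend on how reads were divided among these 3 genes.

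Cyp2c70, the enzyme that makes muricholic acids from chenodeoxycholic acid in mice, is the member whose counts are not shared with another copy. The WSB/EiJ libraries were highest, at 1749, 2198 and 1281 CPM, and the CAST/EiJ libraries lowest, at 531, 445 and 826 CPM. These 2 strains did not overlap. The means were 1743 CPM in WSB/EiJ, 1292 in NOD/ShiLtJ, 1253 in A/J, 1238 in DBA/2J, 847 in 129S1/SvImJ, 844 in PWK/PhJ, 795 in C57BL/6J, 761 in NZO/HlLtJ and 600.4 in CAST/EiJ, and no neighbours differed (adjusted p from 0.12 to 0.999, edgeR). It was higher than in C57BL/6J in WSB/EiJ (log2 fold change 1.13 ± 0.25, adjusted p = 0.00187, edgeR) and NOD/ShiLtJ (0.70 ± 0.25, 0.0452). The NOD/ShiLtJ call was lost with median-of-ratios size factors (adjusted p = 0.0581, edgeR) and in 14 of 27 fits without a library, with adjusted p as high as 0.169 without C57BL/6J replicate 1.

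C57BL/6J, the strain of the reference genome, served as the baseline of 8 comparisons that all share its 3 libraries, so they are set side by side and are not independent. Of 80 such tests of the members, 40 were called. In 129S1/SvImJ 2 members were higher and 3 lower, against 9.69% and 12.2% of all genes tested. In A/J 2 were higher and 2 lower (5.39% and 5.7% of all genes), and in DBA/2J 4 were higher and 1 lower (6.41% and 5.72%). In NOD/ShiLtJ 4 were higher and 2 lower (8.44% and 9.72%), and in WSB/EiJ also 4 were higher and 2 lower (7.95% and 8%). In NZO/HlLtJ 2 were higher and 3 lower (12.3% and 15.3%), in CAST/EiJ 1 higher and 3 lower (16.6% and 17.8%), and in PWK/PhJ 2 higher and 3 lower (12.1% and 13.4%). Each strain thus had called members in both directions, and Cyp2c39 was among the higher members in all 8.

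**Figure D4:**
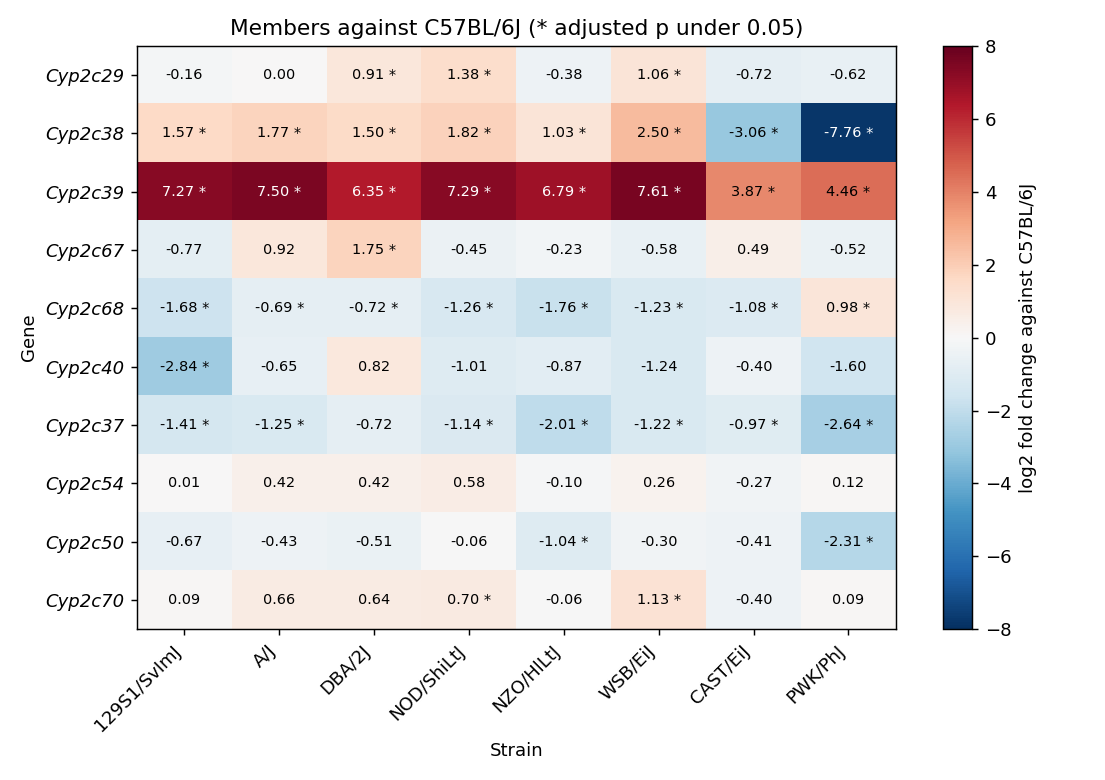
Log2 fold change of each member (rows, in chromosomal order) in 8 strains (columns) against C57BL/6J, as colour and number, where an asterisk marks an adjusted p under 0.05 (edgeR). The row of Cyp2c39 is positive throughout, from 3.87 to 7.61, and that of Cyp2c38 runs from -7.76 in PWK/PhJ to 2.50 in WSB/EiJ.

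The family as a whole took a small and variable part of the RNA. The 10 members summed to 16876 ± 2590.2 CPM in NOD/ShiLtJ, 15132 ± 3849 in WSB/EiJ, 14887 ± 5108 in DBA/2J, 10767 ± 1258 in C57BL/6J, 10727 ± 2628 in A/J, 8355 ± 749 in 129S1/SvImJ, 7296 ± 1242 in NZO/HlLtJ, 7108 ± 969 in CAST/EiJ and 6691 ± 410.2 in PWK/PhJ (SD, n = 3). As a share of all counts in the library, without the TMM adjustment, the order of strains changed: 1.79% in NOD/ShiLtJ, 1.4% in DBA/2J, 1.22% in WSB/EiJ, 0.975% in C57BL/6J, 0.958% in 129S1/SvImJ, 0.876% in NZO/HlLtJ, 0.869% in A/J, 0.818% in CAST/EiJ and 0.684% in PWK/PhJ. Per kilobase, Cyp2c29 made 26.1% of the summed level in C57BL/6J and 47.9% in NOD/ShiLtJ. In PWK/PhJ, Cyp2c68 made 24.5% and Cyp2c50 6.12%, whereas in C57BL/6J they made 7.82% and 18.9%. Cyp2c39 made 0.0615% in C57BL/6J and 12.6% in 129S1/SvImJ. The makeup therefore differed among strains with similar sums, such as NZO/HlLtJ and PWK/PhJ. The shares of members with near-identical copies depend on how their reads were divided.

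**Figure D5:**
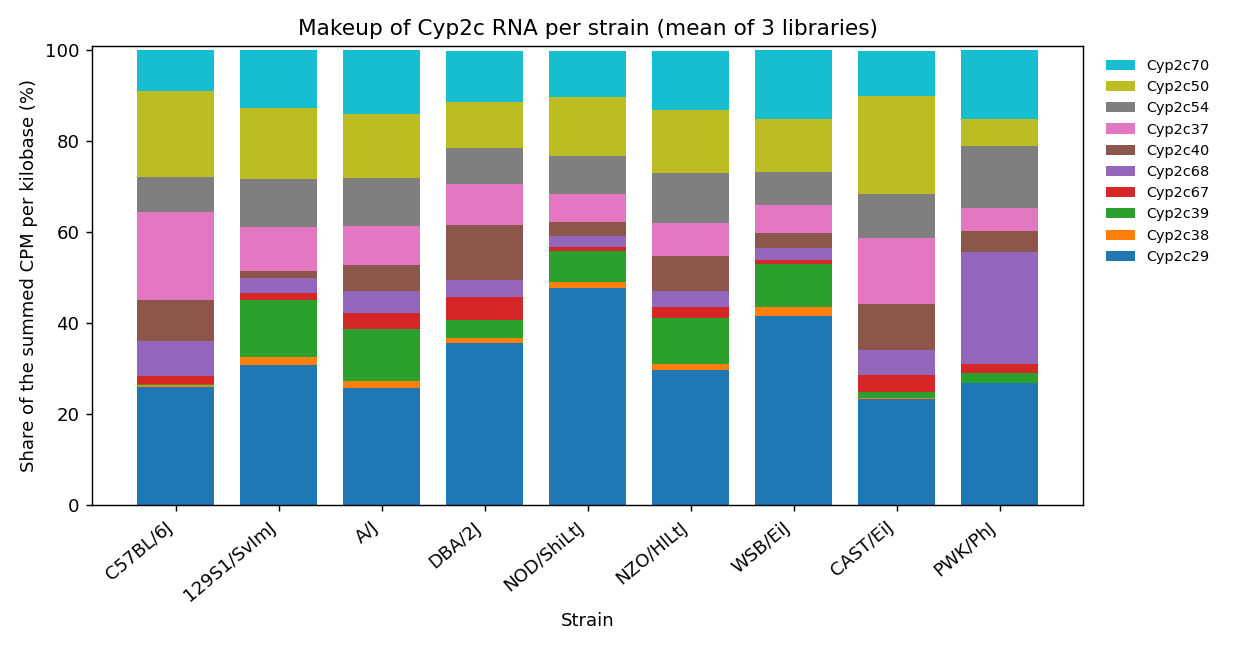
Share of each member (colours, stacked in chromosomal order from the bottom) in the summed CPM per kilobase of the 10 members (vertical axis, %) for the 9 strains (horizontal axis, mean of 3 libraries). Cyp2c68 is the widest band after Cyp2c29 in PWK/PhJ, at 24.5%, and Cyp2c39 is nearly absent in C57BL/6J, at 0.0615%.

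Other Cyp2c genes were measured beside the members. All 3 of those tested, Cyp2c23, Cyp2c55 and Cyp2c69, were called among strains. Cyp2c23, an epoxygenase gene that lies outside the cluster and was long known as Cyp2c44, was high in PWK/PhJ (828 ± 295 CPM), CAST/EiJ (549 ± 39.9), C57BL/6J (507 ± 69.9), WSB/EiJ (504 ± 199) and 129S1/SvImJ (336 ± 43.4) and low in DBA/2J (25.6 ± 4.56), A/J (16.6 ± 1.83), NZO/HlLtJ (14.9 ± 1.27) and NOD/ShiLtJ (11.8 ± 1.79). The 2 sets of strains did not overlap, and the step between 129S1/SvImJ and DBA/2J was called (adjusted p = 1.72e-10, edgeR). Its counts were whole in all 27 libraries. Cyp2c55 was highest in DBA/2J (83.1 ± 60.4 CPM) and Cyp2c69 in C57BL/6J (1343 ± 265 CPM). Cyp2c65 and Cyp2c66 were below the filter, with at most 0.173 CPM in a library.

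The counts of the gene lists that follow stand beside 74.2% of all genes called among strains and, against C57BL/6J, 5.39% to 16.6% of all genes higher and 5.7% to 17.8% lower per strain. Genes that act with the Cyp2c enzymes had smaller ranges over the strain means than the members, near that of all genes. All 7 genes of electron transfer and heme supply were called among strains. Their median range was 1.12 log2 units, against 2.60 for the members and 1.16 for all genes tested. Against C57BL/6J at most 2 of the 7 were higher (in 129S1/SvImJ) and at most 2 lower (in A/J, NZO/HlLtJ and CAST/EiJ). The largest F statistics belonged to Cyb5b (153 CPM in A/J to 368 CPM in NZO/HlLtJ), Cyb5r3 (174 CPM in A/J to 355 CPM in DBA/2J), Cyb5a (302 CPM in A/J to 735 CPM in 129S1/SvImJ), which encode cytochromes b5 and their reductase, and Fech (76.3 CPM in PWK/PhJ to 137 CPM in 129S1/SvImJ), which inserts iron into heme. Por, the P450 reductase, ran between 288 (NZO/HlLtJ) and 617 CPM (C57BL/6J).

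Of 28 transcription factors and receptors tied to Cyp2c expression, 27 were tested and 20 were called among strains, with a median range of 0.93 log2 units. Against C57BL/6J between 0 and 2 were higher and between 0 and 4 lower in each strain. Ahr, the aryl hydrocarbon receptor, ran between 13.3 (WSB/EiJ) and 31.8 CPM (CAST/EiJ). Nr1i3, which encodes CAR, was highest in C57BL/6J (261 ± 50.6 CPM) and lowest in PWK/PhJ (111 ± 28.2 CPM), and Hlf, a clock-controlled factor, ran between 15.7 (WSB/EiJ) and 29.2 CPM (CAST/EiJ). Hnf4a did not pass (adjusted p = 0.0524, edgeR), at 268 to 428 CPM, and neither did Foxa1 (0.0615) or Foxa2 (0.501).

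All 8 other targets of CAR and PXR were called among strains (74.2% of all genes), with a median range of 1.96 log2 units, and against C57BL/6J none was higher in any of the 8 strains. The number lower was 7 in PWK/PhJ (13.4% of all genes), 5 in CAST/EiJ (17.8%), 4 in NZO/HlLtJ (15.3%), 3 in 129S1/SvImJ and in NOD/ShiLtJ, 2 in A/J and in DBA/2J and 1 in WSB/EiJ. Cyp2b10, the classical CAR target, was at 654 ± 209 CPM in NOD/ShiLtJ, 624 ± 409 in DBA/2J and 305 ± 41.5 in C57BL/6J, against 43.6 to 45.8 CPM in 129S1/SvImJ, CAST/EiJ and PWK/PhJ. Ugt1a1, which conjugates bilirubin, ran between 453 (PWK/PhJ) and 1782 CPM (WSB/EiJ), Abcc2, a canalicular transporter, between 309 (DBA/2J) and 747 CPM (C57BL/6J), and Aldh1a1 between 344 (PWK/PhJ) and 974 CPM (DBA/2J).

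Among enzymes that share substrates with the family, 14 of 15 tested genes of fatty acid epoxides and eicosanoids were called, with a median range of 2.29 log2 units. At most 2 were higher than in C57BL/6J in any strain, and 7 were lower in PWK/PhJ, 6 in CAST/EiJ, 5 in NZO/HlLtJ, 2 in 129S1/SvImJ and in NOD/ShiLtJ, and 0 in A/J, DBA/2J and WSB/EiJ. Cyp4a12b, a fatty acid hydroxylase, was at 198 ± 113 CPM in PWK/PhJ and 47.8 ± 36.8 CPM in CAST/EiJ and at most at 0.378 CPM elsewhere. Cyp4f14 was at 5.92 ± 1.83 CPM in PWK/PhJ and at 197 to 729 CPM elsewhere. Cyp2j6 ran between 14.8 (CAST/EiJ) and 119.5 CPM (WSB/EiJ), and Ephx2, the soluble hydrolase of the epoxides, from 83.7 CPM in PWK/PhJ and 119 CPM in CAST/EiJ to 411 CPM in 129S1/SvImJ.

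Of 10 bile acid genes, the pathway in which Cyp2c70 acts, 8 were called among strains. Between 0 and 4 were higher and between 0 and 3 lower than in C57BL/6J in each strain. Cyp7b1, of the alternative pathway, was at 864 ± 78.8 CPM in PWK/PhJ and 373 ± 91 CPM in CAST/EiJ, against 38.3 to 97.4 CPM elsewhere. Cyp8b1, which directs synthesis to cholic acid, ran between 144 (129S1/SvImJ) and 657 CPM (WSB/EiJ). Acox2 ran between 111 (WSB/EiJ) and 237 CPM (CAST/EiJ), and Cyp27a1 between 309 (CAST/EiJ) and 685 CPM (C57BL/6J). Of 10 retinoid genes, 7 were called, with between 1 and 2 higher and between 0 and 4 lower than in C57BL/6J in each strain. Rdh16, a retinol dehydrogenase, ran between 22.2 (PWK/PhJ) and 212 CPM (C57BL/6J), Rbp4, the plasma retinol carrier, between 1644 (CAST/EiJ) and 4324 CPM (WSB/EiJ), and Rdh10 between 21.8 (NZO/HlLtJ) and 47 CPM (WSB/EiJ).

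Many Cyp2c enzymes are found mainly in the hepatocytes around the central vein, so genes of both zones were set beside them. Of 10 pericentral genes, 8 were called among strains, and against C57BL/6J 1 was higher in CAST/EiJ and 0 in the 7 other strains, while the number lower was 7 in WSB/EiJ (8% of all genes), 5 in PWK/PhJ (13.4%), 4 in 129S1/SvImJ (12.2%), DBA/2J (5.72%), NZO/HlLtJ (15.3%) and CAST/EiJ (17.8%), 2 in A/J (5.7%) and 1 in NOD/ShiLtJ (9.72%). Oat, of ornithine metabolism, ran between 149.9 (WSB/EiJ) and 1189 CPM (CAST/EiJ), Lect2 between 60.3 (CAST/EiJ) and 196 CPM (NOD/ShiLtJ), Cyp2e1 between 4182 (CAST/EiJ) and 8654 CPM (C57BL/6J), and Slc1a2, a glutamate transporter, between 34.1 (129S1/SvImJ) and 134 CPM (C57BL/6J). All 10 periportal genes were called, and up to 7 were higher than in C57BL/6J (in WSB/EiJ). Gls2 ran between 153 (A/J) and 604 CPM (WSB/EiJ), Hal, which degrades histidine, between 198 (NOD/ShiLtJ) and 785 CPM (PWK/PhJ), and Ass1, of the urea cycle, between 1192 (A/J) and 3686 CPM (WSB/EiJ). The pericentral share called among strains was near that of all genes (74.2%). The part of either zone list in the Cyp2c results was not tested.

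Genes outside the family whose 9 strain means ran most like a member's were ranked by Pearson's r of log2 CPM among 6314 genes averaging at least 10 CPM. With 9 points and so many genes, high values can arise for any pattern, and they are given as a description. Nearest to Cyp2c38 were Nt5e (r = 0.964), Fkbp15 (0.953) and Rbm28 (0.948), and nearest to Cyp2c39 were Nnt (0.889), Cnot8 (0.887) and Gm28043 (0.881). Nnt encodes a mitochondrial NADPH-supplying enzyme, and C57BL/6J is known to carry a deletion in it. Nearest to Cyp2c29 were Ciz1 (0.961), Pygo2 (0.917) and Clk3 (0.896), and nearest to Cyp2c70 were Fgfr4 (0.914), the hepatic receptor through which FGF15 acts on bile acid synthesis, Man2c1 (0.899) and Rbbp6 (0.895). Rnf103 (0.961), Jak1 (0.958) and Sfxn2 (0.942) ran with Cyp2c68, and A230050P20Rik (0.883), Rgl3 (0.857) and Fuca2 (0.811) with Cyp2c67. Tmem143 (0.958), Fgfrl1 (0.917) and Zfp488 (0.912) ran with Cyp2c37, and mt-Nd4l (0.949), Gm10288 (0.946) and Ces2e (0.934) with Cyp2c50. Creld2 (0.904), Ubxn4 (0.896) and Lrrc41 (0.887) ran with Cyp2c40, and Srsf7 (0.878), Tmem106c (0.872) and Dnase2a (0.87) with Cyp2c54. No gene was named for more than 1 member.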

How the data were processed

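The members and the gene lists were chosen with earlier results of these data known. Per the labels' protocols, RNA was isolated on columns with DNase digestion and poly(A) libraries were made with TruSeq RNA v2, whose strand use is not stated. The authors deposited a table that gives 1 estimated count per Ensembl gene and library, not scaled to depth, and 14.7% of these values were not whole. The submitters' processing notes name GRCm38, mm10, FastQC 0.11.5 and DESeq2 without their roles; the aligner and counter are not given in the sources used here.

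For the tests here, each value was rounded to a whole number, with a change in any library total of no more than 2.61e-04%. Symbols, positions and transcripts came from GENCODE M21, which named 42462 of the IDs. In R 4.3.3, edgeR 4.0.16 kept 14482 genes with filterByExpr by strain, scaled with TMM (factors 0.722 to 1.226) and fitted a quasi-likelihood model with strain as the only factor to all 27 libraries. All strains were tested together, and pairs with p-values adjusted over all genes and 36 pairs at once. Standard errors came from the F statistic. Log2 CPM used a prior count of 2. Coding and promoter sequences were aligned with Biopython 1.88, and promoter windows came from RefSeq.

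All 10 members were named, with the libraries of the highest and lowest strains, up to 4 called genes with the largest F per list averaging at least 10 CPM, and 3 genes per member with the most similar strain means. The values of 1 gene that this rule names are not reported here. Por, Hnf4a, Foxa1, Foxa2 and Cux2, the other Cyp2c genes and libraries of further strains were added after their values were seen. In simulated counts (14036 genes), some genes were changed in PWK/PhJ relative to all other strains. The test among strains called 26 of 50 genes lowered by 2 log2 units and 15 of 50 lowered by 1. It called 24 of 50 raised by 1, 41 of 50 raised by 2, and 9 unchanged genes. Calls in pairs of strains were not counted there. Alternatives were DESeq2 1.42.0, median-of-ratios size factors, no filter, a mean of at least 10 counts, unrounded counts, the replicate number as a factor, fits on pairs of strains, adjustment within each pair, other transcript lengths and leaving out each library. The longest coding transcript was added as an alternative after seeing the data. Chromatin data of the study were not used here.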

Additional observations from a re-analysis of the deposited data

How the results depend on the processing

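Among 2852 recomputed values, 40 no longer passed the threshold and 11 moved beyond their limits. All of these were for single members or for the members called in a single strain. The limit was a set ratio for a count and the SD within a strain for a level. Only log2 fold changes called against C57BL/6J could change direction, and none did. They made 40 values per alternative fit and 1080 over the fits without a library. Most of the latter left out a library of a strain outside the comparison. The number of members called among the strains was 10 under every alternative other than the replicate block, with the replicate number as a factor (9, Cyp2c54 at adjusted p = 0.108, edgeR), and 9 to 10 when a library was left out. Leaving out a library gave 10352 to 11245 of all genes called, 37 to 42 member calls against C57BL/6J and 150 to 179 member and pair calls. The summed level of the 10 members then ranged from 13083 to 17699 CPM in DBA/2J and from 13050.3 to 16665 CPM in WSB/EiJ. DESeq2 called 45 members against C57BL/6J and 182 pairs, and the replicate block 41 and 167. With the replicate block, the log2 fold changes of Cyp2c29 in DBA/2J (0.72, adjusted p = 0.118, edgeR) and of Cyp2c70 in NOD/ShiLtJ (0.59, 0.0939) did not pass. Same-numbered libraries of different strains did not deviate together (median correlation 0.02 over 76 pairs), and 7 of 27 libraries correlated best with their own number, so the numbers were not taken to pair the samples. When each pair of strains was fitted by itself, 3 members were called in DBA/2J in place of 5. Pairs called for Cyp2c40 rose from 7 to 13 without a filter, and those for Cyp2c54 went from 4 to between 1 and 9 when a library was left out. The cause was not tested.

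Depth did not limit the members, apart from Cyp2c38 in PWK/PhJ, where libraries held 7 to 10 counts. The division of reads among near-identical copies, possible differences of strain sequence from the reference, and 3 libraries per strain also limit the values. Median-of-ratios size factors moved no library's scale by more than 0.04 log2 units against TMM.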
